A study of Gallus gallus with 89 samples.

Results

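GLI2 and GLI3 encode the zinc finger transcription factors through which Hedgehog signals reach the genome. They were taken here as 2 of the 13823 gene rows of a single-cell read count table, by their symbols as deposited, and were followed over its 89 cells. Every cell came from amniogenic somatopleure, the ectoderm and mesoderm that fold up over the chick embryo to make the amnion. The tissue was pooled from more than 15 wild-type, untreated embryos at embryonic day 1.5 (stage 10), trypsinised, and captured cell by cell on a Fluidigm C1 chip. The embryos behind single cells are not named, so the pool is 1 sample, no test was run, and SDs and ranges are over cells. Levels are CPM, a gene's reads scaled to 1000000 gene reads per cell, with spike-in RNAs left out. A gene is called detected in a cell at 10 CPM or more.

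In Hedgehog signalling a secreted ligand binds the receptor PTCH1, which relieves the block that PTCH1 places on the membrane protein SMO. SMO then acts in the primary cilium, where GLI2 and GLI3 are kept from being cut into shorter repressor forms. In vertebrates GLI2 is known mainly as an activator and GLI3 mainly as a repressor, while GLI1, PTCH1 and HHIP are transcribed in response to the signal and serve as its usual readouts. Messenger RNA counts do not show which form of the GLI proteins a cell held.

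The shallowest cell held 328645 gene reads, the median cell 1464140 and the deepest 2381723, and 1 read was worth 0.42 CPM in the deepest cell, 0.683 CPM at the median and 3.04 CPM in the shallowest. In 6 cells, fewer than 3000 genes had a read or mitochondrial genes took over 20% of reads. Another set, of 5 cells, detected at least 5 of 11 endothelial markers. A single cell was in both sets. Cell titles start with X09 (58 cells) or X29 (31 cells), and the labels do not say what these prefixes stand for.

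GLI3 was detected in 66 of 89 cells (74.2%, exact Clopper-Pearson 95% interval 63.8 to 82.9%, for counting error only) and GLI2 in 57 (64.04%, interval 53.2 to 73.9%). GLI2 ranged from 0 to 474 CPM with a median of 48.7 and a mean of 87.5 ± 109 CPM (SD over 89 cells). GLI3 ranged from 0 to 558 CPM with a median of 78.4 and a mean of 126 ± 137 CPM. For each gene the SD was larger than the mean, as many cells lay at 0 and others above 100 CPM. No read of GLI2 was found in 24 cells and none of GLI3 in 14 cells, and 100 CPM was reached by GLI2 in 30 cells and by GLI3 in 38. The lowest level in a cell called detected was 11.5 CPM for GLI2 and 10.6 CPM for GLI3. Values by title prefix overlapped. GLI2 was detected in 67.2% of X09 and 58.06% of X29 cells and averaged 89.3 and 84.03 CPM. GLI3 was detected in 77.6% of X09 and 67.7% of X29 cells and averaged 129 and 121 CPM. The genes' transcript lengths were not at hand, so the level of GLI2 was not set against that of GLI3.

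Cells were then split by CDH1, which encodes E-cadherin, TFAP2A, a transcription factor of surface ectoderm, and CLDN3, a tight junction gene. The 27 cells that detected at least 2 of the 3 are called ectoderm-marker cells (14 X09, 13 X29), and the 62 that detected 0 or 1 are called marker-low (44 X09, 18 X29). Neither GLI gene took part in the split. Other ectoderm genes followed it in part. CLDN1 was detected in 100% of ectoderm-marker and 17.7% of marker-low cells and EPCAM in 100% and 45.2%, but the keratin gene KRT18 was detected in 100% of ectoderm-marker and 93.5% of marker-low cells. Of 10 such genes, KRT18 (567 CPM in ectoderm-marker and 711 CPM in marker-low cells) and KRT7 (4296 and 5158 CPM) had higher means in marker-low cells. The others, KRT19 (2712 and 1894 CPM) among them, had higher means in ectoderm-marker cells. Of 12 mesoderm genes, 10 were detected in a smaller share of ectoderm-marker than marker-low cells. PRRX1 and CDH11 were detected in 18.5% and 33.3% of ectoderm-marker cells, against 88.7% of marker-low cells for each. COL1A2 was detected in 0 of 27 ectoderm-marker cells (a count of 0 allows up to 11.1%) and in 66.1% of marker-low cells. The exceptions were HAND1 (88.9% of ectoderm-marker and 74.2% of marker-low cells) and VIM (85.2% and 83.9%). Over the whole list, ectoderm-marker cells detected 1 to 7 (median 3) and their summed level was 48.2 to 1253 CPM, with FOXF1 and COL1A2 at 0 reads. Marker-low cells detected 0 to 11 (median 9) and their summed level was 0 to 4045 CPM. Ectoderm-marker cells detected at most 2 of the 11 endothelial markers, with TAL1, ERG and TEK at 0 reads, and the 5 cells with 5 or more of them were marker-low. How far other cell types add to the values of either state was not tested.

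GLI3 was lower in ectoderm-marker cells and the share of cells with GLI2 at 10 CPM or more differed little between the 2 states. GLI3 ranged from 0 to 344 CPM in ectoderm-marker cells with a median of 10.6 CPM, against 0 to 558 CPM in marker-low cells with a median of 114 CPM. The ranges overlapped, but the ectoderm-marker median lay near the detection limit. GLI3 was detected in 14 of 27 ectoderm-marker cells (51.9%, interval 31.9 to 71.3%) and in 52 of 62 marker-low cells (83.9%, interval 72.3 to 91.98%). Its mean was 50.2 ± 91.2 CPM in ectoderm-marker cells and 159 ± 140.4 CPM in marker-low cells, a log2 fold of -1.64 with 1 CPM added to each mean. Within prefixes the log2 fold was -2.50 in X09 cells and -1.04 in X29 cells.

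A size rule stood in for a test: a gene had to differ at least 2-fold in mean and at least 20 percentage points in share of cells, in 1 direction that also held within X09 and within X29. A gene detected in under 20% of both groups compared could not meet the rule. Nor could a gene detected in nearly all cells of both. Of 9752 genes detected in at least 10% of either state, 4.60% met it as lower and 4.90% as higher in ectoderm-marker cells. GLI3 was among the lower ones and GLI2 met it in neither direction. Calling any cell with 1 read a detecting cell ended the GLI3 call, as the shares became 70.4% of ectoderm-marker and 90.3% of marker-low cells, a difference of -19.95 percentage points. GLI3 met the rule with any 1 cell left out. Depth was close between the states, with a median of 1545735 reads in ectoderm-marker and 1417672 reads in marker-low cells.

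GLI2 ranged from 0 to 401 CPM in ectoderm-marker cells (median 31.9) and from 0 to 474 CPM in marker-low cells (median 76.4). It was detected in 17 of 27 ectoderm-marker cells (62.96%, interval 42.4 to 80.6%) and in 40 of 62 marker-low cells (64.5%, interval 51.3 to 76.3%). Its mean was 75.02 ± 111 CPM in ectoderm-marker cells and 92.9 ± 109 CPM in marker-low cells, a log2 fold of -0.30. The gap in share moved with the limit: at 50 CPM GLI2 was detected in 37.04% of ectoderm-marker and 54.8% of marker-low cells, and at 1 read in 77.8% and 70.97%. The direction of the mean turned with the title prefix, the log2 fold being -0.87 in X09 cells and 0.37 in X29 cells. Of the summed CPM of both genes, GLI3 made up 40.1% in ectoderm-marker cells and 63.1% in marker-low cells, a share in which gene length acts alike on both sides.

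**Figure D1:**
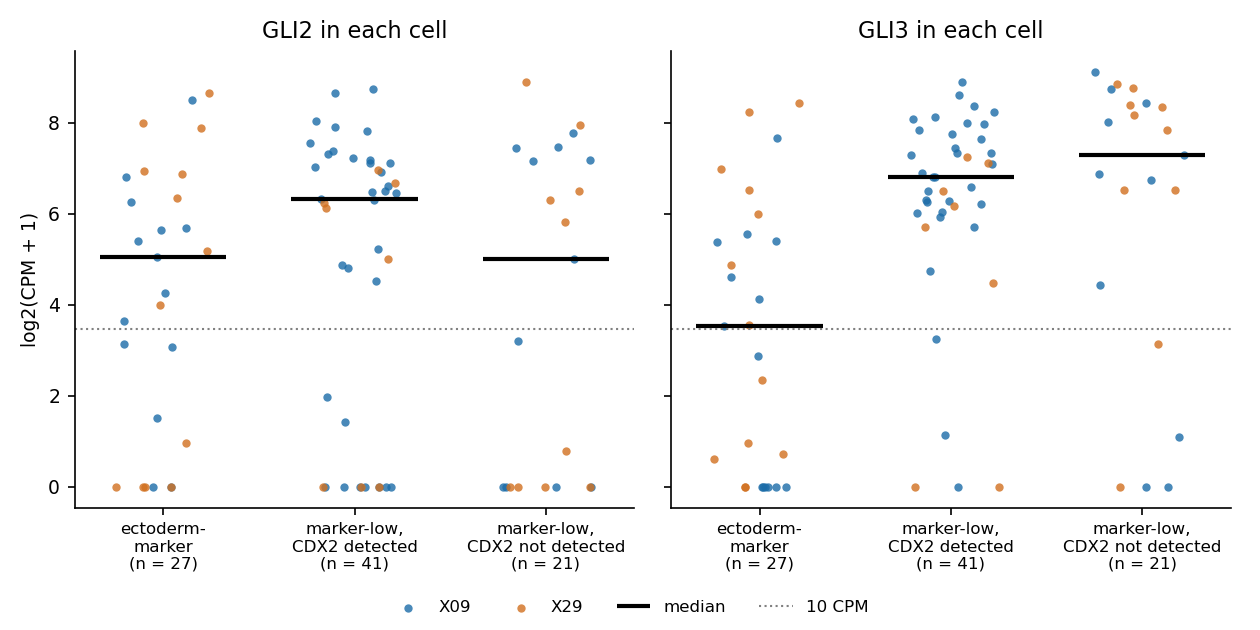
GLI2 (left) and GLI3 (right) in each of 89 cells, as log2(CPM + 1), in ectoderm-marker cells, marker-low cells that detected CDX2 and marker-low cells that did not. Points are cells coloured by title prefix, bars are medians and the dotted line is 10 CPM. The GLI3 median was 10.6 CPM in ectoderm-marker cells, against 110.4 and 157 CPM in the marker-low groups, and the GLI2 medians were 31.9, 78.9 and 31.04 CPM in the same order.

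The share of cells detecting GLI3 did not fall step by step with the number of ectoderm markers. It was 88.9% in the 54 cells with 0 of the 3, 50% in the 8 cells with 1, 37.5% in the 8 cells with 2 and 57.9% in the 19 cells with 3. The share was highest in cells with no marker, and the groups of 8 had wide intervals (15.7 to 84.3% for 1 marker and 8.52 to 75.5% for 2). GLI2 was detected in 64.8%, 62.5%, 62.5% and 63.2% of the same groups. Mean GLI3 levels were 169.9, 84.5, 65.5 and 43.7 CPM from 0 to 3 markers, and mean GLI2 levels were 96.8, 66.9, 47.05 and 86.8 CPM.

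**Figure D2:**
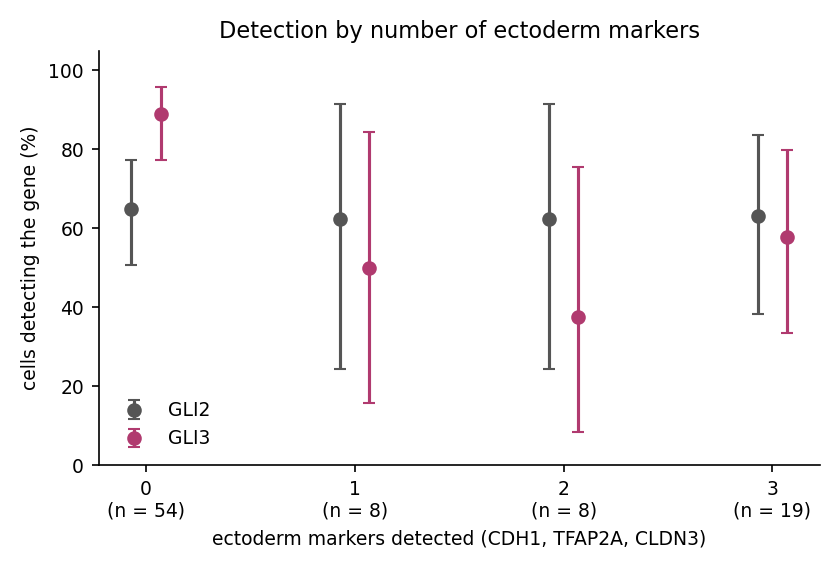
Share of cells detecting GLI2 and GLI3 at 10 CPM or more (y axis, percent) by how many of CDH1, TFAP2A and CLDN3 a cell detected (x axis). Bars are exact 95% intervals for counting error only. GLI3 lay at 88.9% in cells with no marker and at 37.5 to 57.9% in cells with 1 to 3, while GLI2 stayed between 62.5 and 64.8%.

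Among ectoderm-marker cells, 4 of 27 reached 100 CPM of GLI3, at 125, 203, 299 and 344 CPM. These 4 cells detected 5, 2, 7 and 3 of the 12 mesoderm markers, and over all 27 ectoderm-marker cells the median was 3. The Spearman correlation of GLI3 with the number of mesoderm markers was 0.29 over the 27 cells, and that of GLI2 was -0.05. In the same cells the number of genes with a read had a correlation of 0.40 with GLI3 and 0.08 with GLI2. Its part in the relation to mesoderm markers was not tested. Cells share 1 pool and differ in depth, so these values are descriptions.

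CDX2, a homeobox gene of caudal and extra-embryonic tissue, was detected in 41 of 62 marker-low cells and in 7 of 27 ectoderm-marker cells. Cells below 10 CPM of CDX2 are called CDX2-negative, though some held CDX2 reads. Among marker-low cells these were 8, 6, 1 and 1 reads, in cells at 558, 260, 116 and 327 CPM of GLI3. GLI3 was detected in most cells of both marker-low groups, and its mean was lower in the CDX2-detecting group. It ranged from 0 to 472 CPM in CDX2-detecting cells (median 110.4) and from 0 to 558 CPM in CDX2-negative cells (median 157). Detection ran the other way, at 36 of 41 CDX2-detecting cells (87.8%, interval 73.8 to 95.9%) and 16 of 21 CDX2-negative cells (76.2%, interval 52.8 to 91.8%). Mean GLI3 was 137 ± 112 CPM in CDX2-detecting and 202 ± 179 CPM in CDX2-negative cells, a log2 fold of -0.56. By prefix the log2 fold was -0.23 in X09 cells and -1.78 in X29 cells, of which only 8 detected CDX2. With the classes drawn at 50 CPM in place of 10 the fold was 1.10 as a plain ratio, so the direction depended on where the line for CDX2 and the ectoderm markers was set.

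GLI2 had a median of 78.9 CPM in CDX2-detecting cells and 31.04 CPM in CDX2-negative cells, and both groups ran from 0 to over 400 CPM. It was detected in 29 of 41 CDX2-detecting cells (70.7%, interval 54.5 to 83.9%) and 11 of 21 CDX2-negative cells (52.4%, interval 29.8 to 74.3%). Its means were 95.7 ± 104 CPM and 87.3 ± 121 CPM in the same order, a log2 fold of 0.13, with 0.40 in X09 and -0.91 in X29 cells. Neither gene met the size rule in this comparison, in which 3.93% of 9281 measured genes met it as higher and 2.48% as lower with CDX2. GLI3 made up 58.8% of the summed CPM of both genes in CDX2-detecting cells and 69.9% in CDX2-negative cells.

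Endothelial and low-quality cells sat unevenly in these groups. Of the 5 cells with 5 or more endothelial markers, 1 detected CDX2 and 4 did not, and the summed CPM of the endothelial list ran from 0 to 7833 in CDX2-detecting and from 0 to 9523 in CDX2-negative cells. GLI2 had no read in any of the 5, while GLI3 lay at 1.14, 7.77, 25.9, 90.5 and 91.1 CPM. Both genes were at 0 in 5 of the 6 low-quality cells, the sixth being the endothelial-marker cell with 90.5 CPM of GLI3. Without both kinds of cell, GLI2 was detected in 76.3% of 38 CDX2-detecting and 73.3% of 15 CDX2-negative cells, closer together than before, and averaged 103 and 122 CPM. GLI3 was then detected in 92.1% and 93.3% and averaged 147 ± 110.2 CPM in CDX2-detecting and 271 ± 166 CPM in CDX2-negative cells, a ratio of 0.544.

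In the 7 CDX2-detecting ectoderm-marker cells GLI3 ranged from 0 to 28.4 CPM and averaged 8.9 CPM, against 0 to 344 CPM and a mean of 64.6 CPM in the 20 CDX2-negative ectoderm-marker cells. GLI2 averaged 61.2 CPM in the 7 cells and 79.9 CPM in the 20. With so few cells, detection of GLI3 in 3 of 7 (42.9%, interval 9.9 to 81.6%) and in 11 of 20 (55%, interval 31.5 to 76.9%) overlap in their intervals.

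GLI2 and GLI3 were detected together in 48 of 89 cells (53.9%, interval 43.04 to 64.6%). GLI3 alone was detected in 18 cells, GLI2 alone in 9 and neither in 14. The product of the shares of the 2 genes corresponds to 42.3 cells with both. Of cells with a single GLI gene, 7 of 27 ectoderm-marker cells detected GLI2 alone and 4 GLI3 alone, against 2 and 14 of 62 marker-low cells. Among marker-low cells GLI3 was detected in 95% of those with GLI2 and in 63.6% of those without. Without low-quality and endothelial-marker cells these shares were 95% and 84.6%, and 38 cells detected both genes, beside 36.98 from the product of the shares. In ectoderm-marker cells the corresponding shares were 58.8% and 40%.

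The Spearman correlation of the levels of GLI2 and GLI3 was 0.24 within the 27 ectoderm-marker cells and 0.43 within the 62 marker-low cells, or 0.29 and 0.65 in marker-low X09 and X29 cells. The marker-low value was 0.24 over the 53 cells left without the low-quality and endothelial-marker cells. Number of genes with a read also moved with both genes in marker-low cells (correlation 0.46 for GLI2 and 0.28 for GLI3), and its part in the relation was not tested.

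**Figure D3:**
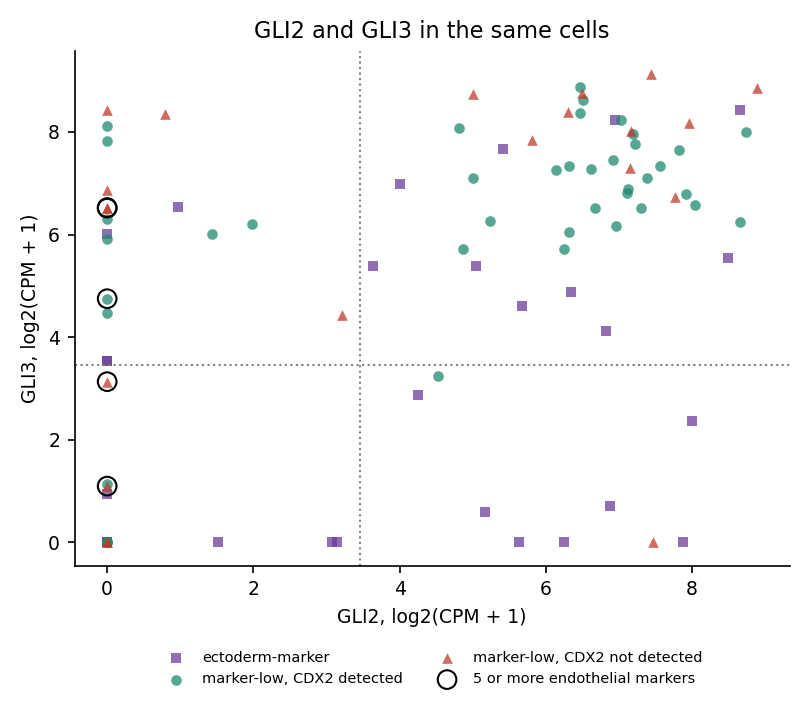
GLI2 (x axis) against GLI3 (y axis) in each of 89 cells, both as log2(CPM + 1), with the 3 groups by colour and shape. Dotted lines mark 10 CPM and rings the 5 cells with 5 or more endothelial markers. Those 5 cells lie at 0 on the GLI2 axis, and the region right of and below the dotted lines, GLI2 without GLI3, holds 7 ectoderm-marker and 2 marker-low cells.

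Reads of the usual readouts of Hedgehog signalling were few. PTCH1, GLI1 and HHIP each had a row. PTCH1, the receptor, had 688 reads over all cells and was detected in 8 cells (8.99%, interval 3.96 to 16.9%), with a read below the limit in 16 more. GLI1 had 69 reads in 7 cells, at most 20 in a cell, and was detected in 0 of 89 cells (a count of 0 allows up to 3.37%). HHIP, which encodes a decoy that binds the ligands, had 82 reads in 3 cells and was detected in 2. GLI2 and GLI3 had 11706 and 17308 reads over all 89 cells. Transcript lengths were not at hand, so read counts of different genes do not compare their levels.

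The 8 cells detecting PTCH1 were marker-low, 4 of them X09 and 4 X29. CDX2 was detected in 7 of the 8, beside 66.1% of all marker-low cells. Their PTCH1 levels were 14.6, 16.8, 36.5, 41.3, 43.9, 74.3, 80.1 and 149.9 CPM, and 622 of the 688 PTCH1 reads lay in them. GLI2 and GLI3 were both detected in 7 of these cells, beside 61.3% of all marker-low cells. With only 8 cells, these counts are descriptions. The cell with 149.9 CPM of PTCH1 had no GLI2 read and 1.2 CPM of GLI3. No cell with a GLI1 read detected PTCH1, and 1 cell with a HHIP read did. Only 7 cells had a GLI1 read and 3 a HHIP read, too few for these overlaps to show a relation or its absence. PTCH1 was detected in 0 of 27 ectoderm-marker cells (floor 11.1%) and in 12.9% of marker-low cells. Shares this low cannot differ by the 20 points of the size rule, so the rule decides nothing for PTCH1. Mean PTCH1 was 0.256 CPM in ectoderm-marker and 7.90 CPM in marker-low cells.

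The rest of the pathway was read from a list of 98 genes, of which 72 had a row here and 59 were detected in enough cells to be measured in the comparison of states. The ligand genes SHH, IHH and DHH had no row under these symbols, so their levels were not analysed here. No gene row had 0 reads in all cells, so a missing row does not tell a gene without reads from one not counted under its symbol. In ectoderm-marker cells 5 of 59 were lower (8.47%, beside 4.60% of all measured genes) and 1 was higher (1.69%, beside 4.90%). Such counts are small and, with both directions summed, near the background. The median log2 fold was -0.26 for the list and -0.03 for all measured genes. The 5 lower genes were GLI3, SPOP, DYRK2, MKS1 and HAND2, and the higher one was JAG2.

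None of the 7 measured receptor and co-receptor genes met the rule. SMO, which carries the signal across the membrane, reached 101.3 CPM in 1 ectoderm-marker cell and was detected in 7.41% of ectoderm-marker and 17.7% of marker-low cells. The co-receptor gene CDON was detected in 51.9% of ectoderm-marker and 46.8% of marker-low cells and BOC in 14.8% and 22.6%, while GAS1 was detected in none of the 89. The endocytic receptor gene LRP2 averaged 38.5 CPM in ectoderm-marker and 14.03 CPM in marker-low cells. The glypican genes, whose products hold Hedgehog ligands at the cell surface, were among the best detected. GPC4 was found in 74.1% of ectoderm-marker and 82.3% of marker-low cells and averaged 49.2 and 105.9 CPM. GPC3 was found in 51.9% of ectoderm-marker and 62.9% of marker-low cells, but its mean ran the other way, at 205 and 113 CPM. Of genes for ligand release, DISP1, needed by cells that send the signal, averaged 39.4 CPM in ectoderm-marker and 71.7 CPM in marker-low cells, and HHAT was detected in 6 cells.

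Of the 17 measured transduction genes, 2 were lower in ectoderm-marker cells (11.8%, beside 4.60% of all measured genes). None was higher (beside 4.90%). A count of 2 in 17 is too small to set apart from that background. SPOP, an adaptor that brings GLI proteins to a ubiquitin ligase, was detected in 7.41% of ectoderm-marker and 27.4% of marker-low cells, and the kinase gene DYRK2 in 11.1% and 33.9%. SUFU, which encodes the main inhibitor that binds GLI proteins, was detected in 22.2% of ectoderm-marker and 32.3% of marker-low cells and KIF7, a kinesin of the ciliary tip, in 11.1% and 24.2%. EVC and EVC2, which encode partners of SMO, were detected in 14.8% and 7.41% of ectoderm-marker cells, against 32.3% and 20.97% of marker-low cells. The other 15 measured transduction genes did not meet the rule. PRKAR1A, a protein kinase A subunit gene, averaged 372 CPM in ectoderm-marker and 367 CPM in marker-low cells, GSK3B 51.8 and 57.7 CPM, PRKACB 44.95 and 70.1 CPM, FBXW11 60.2 and 92.2 CPM and BTRC 7.35 and 3.68 CPM.

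Of 20 measured cilium genes 1 was lower in ectoderm-marker cells (5%, near the 4.60% of all measured genes). It was MKS1, which encodes a protein of the ciliary gate (7.41% of ectoderm-marker and 29.03% of marker-low cells). Of 11 measured genes known as targets in other tissues, 1 was lower and 1 higher (9.09% each, beside 4.60% and 4.90% of all measured genes). A count of 1 in 11 is too small to set apart from that background. HAND2 was lower, at 16.2 CPM in ectoderm-marker and 114 CPM in marker-low cells. JAG2, a Notch ligand gene, was higher, at 75.1 and 12.2 CPM. HAND2 is also on the mesoderm marker list, so its direction is not separate from the identity of the cells. FOXF1, a target of Hedgehog signals in gut mesoderm of the mouse, was detected in 0 of 27 ectoderm-marker cells and 12.9% of marker-low cells.

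**Figure D4:**
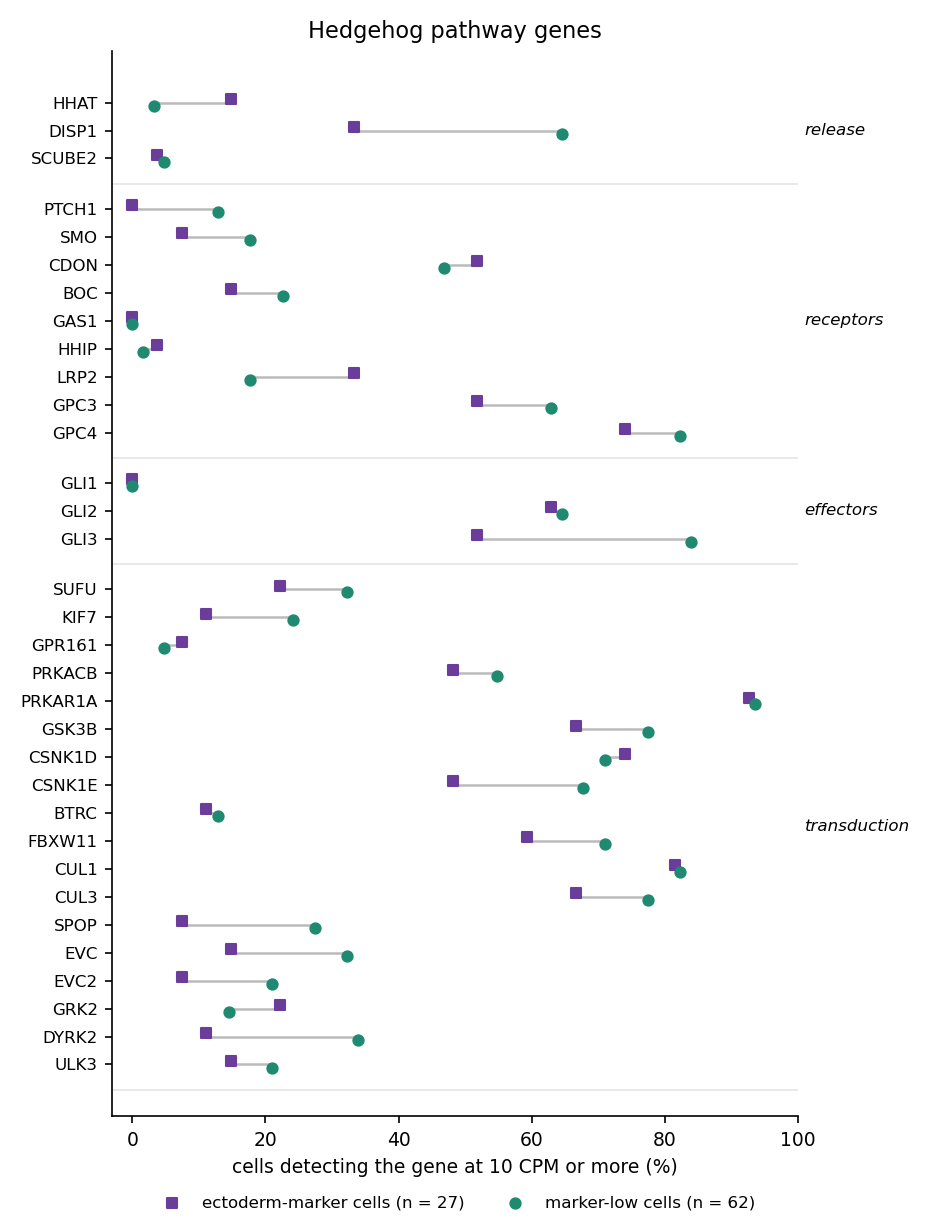
Share of ectoderm-marker cells (squares, n = 27) and marker-low cells (circles, n = 62) detecting each release, receptor, effector and transduction gene reported here; the x axis is percent of cells at 10 CPM or more. GLI3 lay at 51.9 and 83.9%, GLI2 at 62.96 and 64.5%, and GLI1 at 0% in both.

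Between CDX2-detecting and CDX2-negative marker-low cells 1 of 60 measured list genes met the rule as higher (1.67%, beside 3.93% of all measured genes) and 3 as lower (5%, beside 2.48%). These counts are small and, summed, near the background. HAND2 was higher, at 145 CPM in CDX2-detecting and 55.1 CPM in CDX2-negative cells. FOXC2 (detected in 0% of CDX2-detecting and 42.9% of CDX2-negative cells), MYCN (4.88% and 38.1%) and OSR1 (0% and 23.8%) were lower. SMO was detected in 24.4% of CDX2-detecting and 4.76% of CDX2-negative cells, short of 20 points. PTCH1 was detected in 17.1% and 4.76%, shares too low for a difference of 20 points. The count of list genes meeting the rule was not stable, running from 2 to 7 over the settings that kept the rule. Within X09 and X29 cells alone, where the rule is looser, it was 11 and 10, each of 61 measured list genes. The share of list genes lay above the 12.3% of all measured genes in X09 cells. In X29 cells it lay below the 20.5% of all measured genes.

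Genes were ranked by how closely their levels followed each GLI gene, as the Spearman correlation of log2(CPM + 1) over all 89 cells. The ranking ran over 7183 genes detected in at least 20% of cells. Genes named from it are those with a gene symbol whose sign held within X09 and within X29. Rows known only by an Ensembl identifier (3371 of 13823) are not named, though some may lie among the closest or farthest. The lowest value with GLI3 over all rows ranked was -0.58, farther than any gene named. For GLI3 the 5 closest were CDH11 (0.63), a cadherin of mesenchyme, MGST3 (0.62), a glutathione transferase, OLFML3 (0.60), a secreted matrix protein, COLEC12 (0.59), a scavenger receptor, and PARD3B (0.59), of a family of polarity proteins. The 99th percentile over all genes ranked was 0.46. The 5 had higher means in marker-low cells: CDH11 averaged 54.4 CPM in ectoderm-marker and 727 CPM in marker-low cells, and COLEC12 20.4 and 373 CPM. Pooled values can carry the difference between the states, and its part in them was not tested. Within a state the values were 0.32 in ectoderm-marker and 0.42 in marker-low cells for CDH11, and 0.13 and 0.36 for COLEC12. The genes were picked for extreme values over all cells, so smaller values within a state follow in part from the picking. The gene symbols farthest from GLI3 were UCH-L1 (-0.55), a deubiquitinase gene, CLDN3 (-0.53) and PRDX1 (-0.52), a peroxidase gene. CLDN3 is one of the 3 genes that define the split.

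For GLI2 the 5 closest gene symbols over 89 cells were ADAMTS19 (0.53), a secreted protease gene, HERC1 (0.51), a ubiquitin ligase gene, PLA2G15 (0.48), a lysosomal phospholipase gene, MAP3K1 (0.47), a kinase gene, and PKP2 (0.47), a desmosome gene. The 99th percentile was 0.37. HERC1 averaged 88.5 CPM in ectoderm-marker and 90.4 CPM in marker-low cells, and its correlation with GLI2 was 0.46 and 0.52 within those states. Farthest from GLI2 were ENY2 (-0.35), RTN4 (-0.29) and TIMM10 (-0.29). Over all cells GLI3 stood 25th among the genes closest to GLI2 and GLI2 stood 133rd among those closest to GLI3, but within marker-low cells the places were 88th and 65th.

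**Figure D5:**
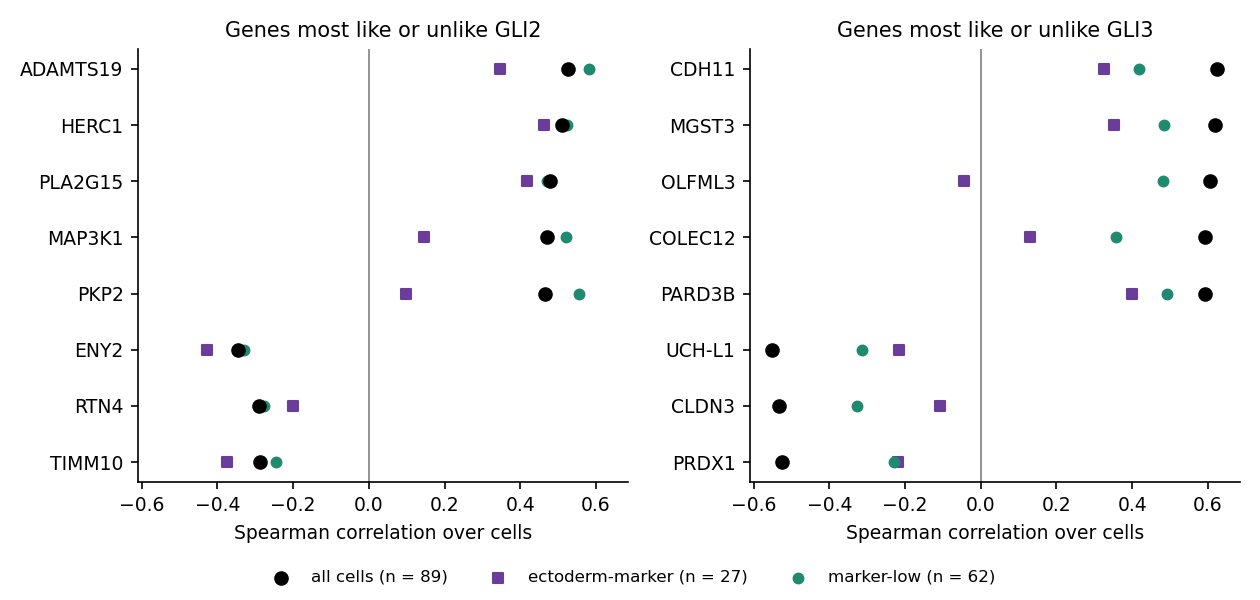
Spearman correlation (x axis) of the 5 closest and the 3 farthest genes with GLI2 (left) and GLI3 (right), over all 89 cells (black), within 27 ectoderm-marker cells (squares) and within 62 marker-low cells (green). The genes shown are the closest and farthest with a gene symbol, picked on the value over all cells. For GLI3 that value is larger in size than within either state for the 8 genes shown, in part through this picking. For HERC1 and GLI2 the 3 values are 0.51, 0.46 and 0.52.

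Within marker-low cells alone, the 5 gene symbols closest to GLI2 were ADAMTS19 (0.58), GALNT11 (0.58), MYL9 (0.57), HIC2 (0.57) and ELF2 (0.57). Those closest to GLI3 were SLC38A1 (0.56), ASPSCR1 (0.56), PDZRN4 (0.55), WWC2 (0.54) and FAT1 (0.53). MYL9 encodes a regulatory light chain of myosin, SLC38A1 an amino acid transporter and FAT1 an atypical cadherin. Without low-quality and endothelial-marker cells the values for these GLI2 neighbours were 0.42 to 0.60 and those for the GLI3 neighbours 0.39 to 0.48. The 44 Hedgehog list genes that could be ranked there had a median correlation of 0.13 with GLI2 and 0.17 with GLI3, beside 0.13 and 0.10 for all genes ranked. The highest of the 44 were MKS1 with GLI2 (0.49) and DISP1 with GLI3 (0.43), named as the extremes. The 99th percentile over all genes ranked in marker-low cells was 0.44 for GLI2 and 0.42 for GLI3.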

How the data were processed

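The deposited values are unnormalised counts of reads, a row per gene and a column for each of 89 cells. Per the labels' protocols, SMARTer v4 chemistry made the cDNA on the chip and Nextera XT the libraries, sequenced as paired ends on a HiSeq instrument. Per the submitters' processing notes, HISAT2 2.1.0, featureCounts and the GRCg6a build were used. Their settings were not given in the sources used here. There are no molecular identifiers, so intervals and floors (3 counts of the total) cover counting error only.

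The table held 3 spike-in rows (5.99% of reads), left out, and 13823 gene rows. From the counts, CPM was computed with Python 3.11.15, pandas 2.3.3 and scipy 1.17.1. Cells were split by marker detection as described, no cell was removed, and no doublet caller was run. The RefSeq gene table of build GRCg7b lists GLI3 among older symbols of GLI2; the 2 rows were taken by the deposited symbols. The code of the size rule and correlations was run on counts simulated gene by gene, with large planted changes and close followers of GLI3. That run does not cover smaller differences or weaker correlations. Members, lists and rules were chosen with earlier results of these data known. Named were GLI2, GLI3, PTCH1, GLI1, HHIP, the pathway genes by value or count, and the closest and farthest genes by correlation. FOXF1, the marker genes beside the split and the CDX2 split of ectoderm-marker cells were chosen after their values were seen. Values of 1 list gene are not reported here.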

Additional observations from a re-analysis of the deposited data

How the results depend on the processing

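Shares were held to their exact interval, folds and counts to 1.5 times, and the correlation to 0.1. Of planned values, which include the extremes of leaving out 1 cell, 189 stayed within and 21 did not. Of values added after the data were seen 43 did and 5 did not. Exact intervals of small groups are wide, so staying within does not mean unchanged. With 1 read as the limit both GLI3 shares by state stayed within, but the GLI3 call was lost. With 1 read as the limit, GLI3 was detected in 84.3% of all cells and both genes in 65.2%; at 50 CPM GLI2 was detected in 49.4%, GLI3 in 61.8% and both in 39.3% of all cells, GLI2 in 37.04% and GLI3 in 22.2% of ectoderm-marker cells, and 2 list genes met the size rule by CDX2. For ectoderm-marker over marker-low cells, the GLI3 ratio of means was 0.32, and 0.177 in X09 and 0.485 in X29 cells alone, and that of GLI2 was 0.81, and 1.29 in X29 cells; list genes meeting the rule numbered 6, and 11 in X09 and 14 in X29 cells alone. For CDX2-detecting over CDX2-negative cells, X29 cells alone gave 0.534 for GLI2 and 0.292 for GLI3; list genes meeting the rule numbered 4, and 11 in X09 cells, 10 in X29 cells, 7 without low-quality cells and 7 without endothelial-marker cells. Within 1 prefix the rule has no condition on the other prefix and is looser: between states 14.5% of all measured genes met it in X09 and 15.9% in X29 cells, and by CDX2 12.3% and 20.5%. Measured list genes numbered 58 in each prefix between states and 61 in each by CDX2. The share of list genes meeting the rule lay below that of all measured genes by CDX2 in X29 cells and above it elsewhere. The share of all measured genes was computed only for the main setting and for single prefixes. List counts under any other setting have no background beside them. The correlation in marker-low cells was 0.29 in X09 and 0.65 in X29 cells. Of the added settings, classes drawn at 50 CPM gave a GLI3 ratio of 1.10 by CDX2 and 2 list genes; without both low-quality and endothelial-marker cells GLI3 was detected in 92.5% of marker-low and 93.3% of CDX2-negative cells and the correlation was 0.24. The causes were not tested. Leaving out each cell in turn, the GLI3 ratio between states was 0.249 to 0.334. Thinning every cell to 328645 reads kept the GLI3 call, with a ratio of 0.264. No paired analysis was possible because the cells form 1 sample and the embryo behind each cell is not named.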
